A study of Mus musculus with 28 samples.

Results

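The comparison described here is that of DC2 cells exposed to corticosterone with DC2 cells exposed to vehicle, 6 days after the treatment ended (day 9 of the experiment). DC2 cells derive from the distal part of the caput epididymidis of the mouse and are grown as an epithelial sheet. Members were chosen by the day and the treatment in their labels, which gave 8 of the 28 libraries of the series, 4 per group. In both groups, cells had reached confluence on rat tail collagen, in Iscove's medium supplemented with serum, before the medium was exchanged. One group then received 500 ng/ml corticosterone dissolved in ethanol, and the other received ethanol alone at 0.1%. Medium was exchanged again on day 3 and on day 6 in both groups, and the RNA of day 9 was sequenced as stranded mRNA libraries. The day 9 values are set beside the same comparison at day 3 (end of exposure) and day 6 (3 days after it), which used other libraries. DC2 is a single cell line, and the labels do not say whether libraries of a group came from separate cultures, so p-values measure the spread between these samples, which may be technical.

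Corticosterone is the main glucocorticoid of rodents. It enters cells and binds the glucocorticoid receptor Nr3c1, which moves to the nucleus and binds DNA near its target genes. Known targets include the receptor's own co-chaperone Fkbp5 and inhibitors of inflammatory signalling, and the receptor also lowers the output of the inflammatory transcription factors NF-kB and AP-1. The caput epididymidis is the region where sperm begin to mature in fluid that the lining epithelium secretes. Hypoxia-inducible factors, which enter the results below, are transcription factors that are degraded when prolyl hydroxylases such as Egln1 and Egln3 have oxygen to work with. When stabilized, they raise glucose uptake and glycolysis genes, together with the genes of those same hydroxylases.

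The day 9 libraries held an estimated 29.6 to 48.4 M reads each, as read from the steps between their lowest values (0.0207 to 0.0338 CPM per read). The root mean square log2 difference was 0.288 to 0.383 between libraries of the same group and 0.425 to 0.518 between groups. Of 31 epididymal epithelium markers, 13 were among the genes tested, including the transcription factors Pax2 and Pax8, while the segment-specific secretory genes Crisp1, Lcn5, Lcn8, Gpx5 and Cd52 were not. Ptprc, Adgre1 and Itgam, which define leukocytes and macrophages, and Cdh5 and Tek, which define endothelium, were not among the genes tested either.

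Of 13128 genes tested with limma, 1849 (14.1%) were higher and 1887 (14.4%) were lower in the corticosterone libraries at day 9 (Benjamini-Hochberg adjusted p under 0.05). At least a 2-fold difference was seen for 123 of the higher genes and 173 of the lower ones. Across all genes the median log2 fold change was 0.0029 and its median size was 0.15, with a median SE of 0.09. Values with ± below are log2 fold changes and the SE of the contrast, unless an SD is named. The 4 corticosterone values lay all above or all below the 4 vehicle values for 4316 genes (32.9%). At day 6, 6194 genes (47.2%) passed the same test, with a median size of 0.22, and at day 3, 6429 genes (49.0%) passed, with a median size of 0.23. The numbers of passing genes with at least a 2-fold difference were 296 at day 9, 990 at day 6 and 906 at day 3. The treatment's effect itself differed from that at day 6 for 4062 genes (30.9%) and from that at day 3 for 5028 genes (38.3%).

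Of the genes that passed at day 9, 2043 (54.7%) had passed in the same direction at day 6, which is 33.0% of the day 6 genes, and 418 (11.2%) had passed in the opposite direction. For day 3 these numbers were 1542 (41.3%, and 24% of the day 3 genes) and 763 (20.4%). In all, 1416 genes passed in the same direction on all 3 days, and 811 (21.7%) passed at day 9 alone. Of 4422 genes that passed in the same direction on days 3 and 6, 2654 did not pass at day 9. Pearson's r between the log2 fold changes across genes was 0.565 for days 9 and 6 and 0.345 for days 9 and 3 (Spearman's rho 0.38 and 0.18); genes are not independent replicates, and these values are descriptions. One day 3 corticosterone library (replicate 4) stood apart from its group on mitochondrial and ribosomal genes and entered the pooled estimate of spread. Without it 2403 genes were higher and 2326 lower at day 9, of which 2559 shared the direction of day 6 and 1842 that of day 3.

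**Figure D1:**
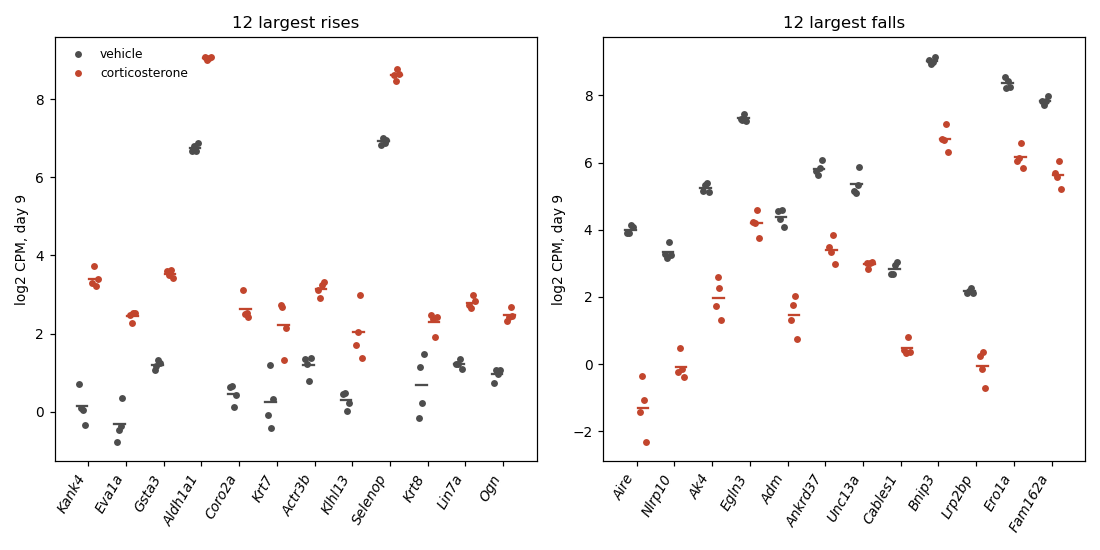
Level (vertical axis, log2 CPM) of the 12 genes with the largest rises (left) and the 12 with the largest falls (right) in each day 9 library, with vehicle in grey, corticosterone in red and the group mean as a line. For Egln3 the corticosterone points lie between 3.74 and 4.60, all below the vehicle points, and for Aldh1a1 between 9.00 and 9.09, all above them.

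Of the 47 gene lists examined, the hypoxia response had the median furthest from zero among those with more than 1 measured member. Of 27 measured members of that list, 24 fell and 1 rose, against 14.4% and 14.1% of all genes, with a median log2 fold change of -1.24. A fall of at least 2-fold was seen for 17 of them, and 26 of 27 had a negative value. The mean level of the list was 6.95, 6.91, 6.94 and 6.89 log2 CPM in the 4 vehicle libraries and 5.70, 5.73, 5.91 and 5.52 in the 4 corticosterone libraries. The groups did not overlap. In bulk RNA, fewer cells of a kind and less RNA per cell cannot be told apart, here and in each result below.

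Egln3, a prolyl hydroxylase that marks hypoxia-inducible factors for degradation, stood at 7.30, 7.26, 7.45 and 7.25 log2 CPM in the vehicle libraries and at 4.22, 4.21, 4.60 and 3.74 in the corticosterone libraries. Every treated library was below every vehicle library, a log2 fold change of -3.12 ± 0.15 (adjusted p = 2.2e-14), or 8.72-fold lower. Its sister enzyme Egln1, the main oxygen sensor of most cells, fell less, from 8.61, 8.49, 8.63 and 8.63 in vehicle to 6.84, 6.72, 7.06 and 6.55 (-1.80 ± 0.08, adjusted p = 1.3e-14). The glucose transporter Slc2a1 had vehicle values of 8.50, 8.40, 8.49 and 8.37 and corticosterone values of 7.20, 7.18, 7.21 and 7.06, again without overlap and with little spread within groups (-1.28 ± 0.05, adjusted p = 6.8e-15).

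Bnip3, which takes part in the removal of mitochondria by autophagy, was at 9.06, 8.93, 9.01 and 9.16 log2 CPM in vehicle and at 6.70, 6.67, 7.16 and 6.3 after corticosterone. The treated values were all lower (-2.33 ± 0.13, adjusted p = 3.9e-13), and they were also more spread than the vehicle values. Adm, which encodes the vasodilator peptide adrenomedullin, had values of 4.54, 4.31, 4.59 and 4.07 in vehicle and 1.32, 1.75, 2.04 and 0.75 after corticosterone, a log2 fold change of -2.92 ± 0.35 (adjusted p = 4.2e-07). Treated replicate 6 was the lowest treated library for Egln3, Bnip3 and Adm alike. Other members that fell were the disulfide oxidase gene Ero1a (-2.21 ± 0.14), Ankrd37 (-2.41 ± 0.24), the mitochondrial protein gene Fam162a (-2.21 ± 0.15), the Myc antagonist gene Mxi1 (-1.01 ± 0.05), and Lox, the collagen crosslinking lysyl oxidase (-1.72 ± 0.09). The single member that rose was Epas1, the gene of hypoxia-inducible factor 2 alpha, named after its values were seen. It was low in vehicle, at -2.34, -1.83, -3.15 and -2.42 log2 CPM, and stood at -0.63, -0.24, -0.54 and -0.50 after corticosterone. All 4 treated values were higher (1.96 ± 0.39, adjusted p = 4.3e-04), but with 5 CPM added before the log the difference was 0.14 and did not pass. Ak4, a mitochondrial adenylate kinase that is also known to respond to low oxygen but is not on the list, was among the 12 genes that fell most (-3.28 ± 0.61, adjusted p = 1.7e-04).

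In the vehicle cultures the same list stood at 4.79 log2 CPM on day 0, 5.07 on day 3, 6.29 on day 6 and 6.92 on day 9. In the treated cultures it stood at 5.47 on day 3, 5.46 on day 6 and 5.72 on day 9. The vehicle level was thus higher on each later day, whereas the treated level stayed within a narrow range. At day 3, 12 members had been higher and 7 lower in the treated cultures (median 0.18), and at day 6, 2 were higher and 19 lower (median -0.59), where 49.0% and 47.2% of all genes passed in either direction. For 22 of the 27 genes the day 9 effect was below the day 3 effect in a test of the difference, which 38.3% of all genes passed in either direction. Egln3 rose like the list in vehicle cultures, with means of 1.41, 1.89, 5.90 and 7.32 on days 0, 3, 6 and 9. In treated cultures it departed from the list, with means of 1.44, 1.30 and 4.19 on days 3, 6 and 9. Its log2 fold change was thus -0.45 at day 3, -4.60 at day 6 and -3.12 at day 9. Unlike the list median, it was nearer to zero at day 9 than at day 6. Adm changed sides, from 4.35 at day 3 through -0.42 at day 6 (adjusted p = 0.339) to -2.92 at day 9.

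**Figure D2:**
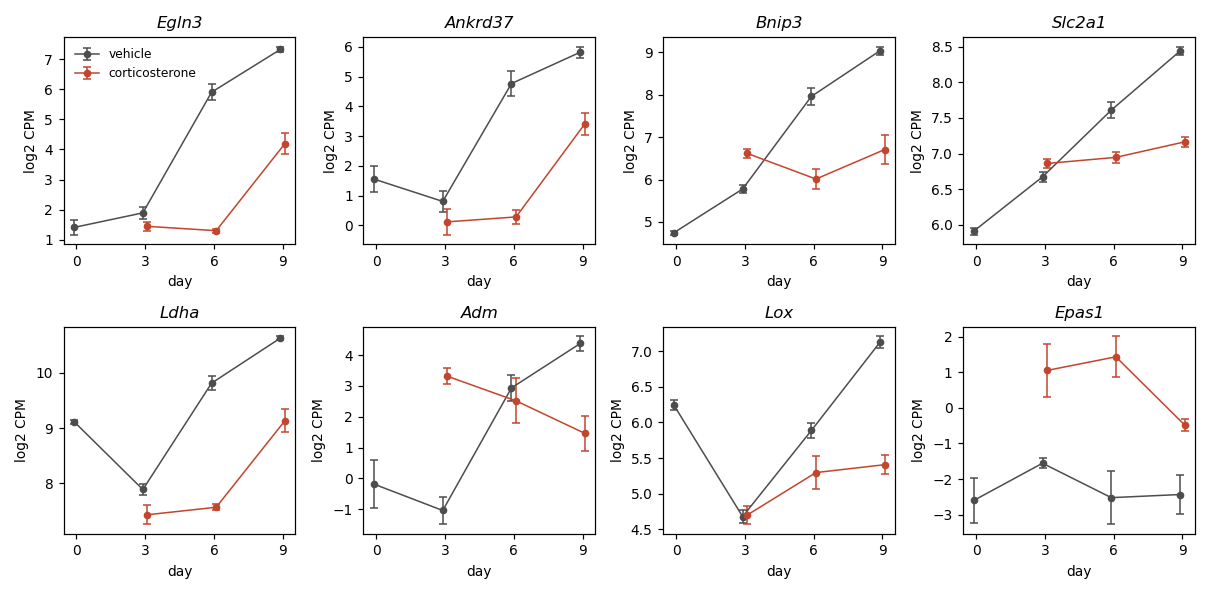
Mean level with SD over 4 libraries (vertical axis, log2 CPM) of Egln3, Ankrd37, Bnip3, Slc2a1, Ldha, Adm, Lox and Epas1 by day (horizontal axis) in vehicle (grey) and corticosterone (red) cultures. Vehicle Egln3 goes from 1.41 on day 0 to 7.32 on day 9, and the treated level is 1.30 on day 6 and 4.19 on day 9.

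Glycolysis genes fell with them: of 23 measured, 19 fell and 2 rose, with a median of -1.04, and 13 fell by at least 2-fold. Slc2a1 and Pdk1 are on both lists. Summed over the list, the vehicle libraries held 21880 to 23550 CPM and the treated libraries 9346 to 11380 CPM. Pgk1, phosphoglycerate kinase, was at 11.14, 11.02, 11.19 and 11.09 log2 CPM in vehicle and at 9.43, 9.37, 9.67 and 9.15 after corticosterone (-1.70 ± 0.09, adjusted p = 1.7e-13). Ldha, the lactate dehydrogenase subunit that favours lactate, was at 10.64, 10.57, 10.64 and 10.64 in vehicle and 9.19, 9.16, 9.34 and 8.84 after treatment (-1.49 ± 0.08, adjusted p = 5.3e-13). Both genes were without overlap between groups. Hexokinase 2, Hk2 (-1.04 ± 0.10), and the muscle type pyruvate kinase Pkm (-1.06 ± 0.05) fell as well.

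Both members that rose were named after their values were seen. Ldhb, the lactate dehydrogenase subunit of oxidative tissues, was at 3.97, 4.35, 4.08 and 4.23 log2 CPM in vehicle and 5.17, 5.12, 5.07 and 5.12 after corticosterone, all treated values being higher (0.96 ± 0.12, adjusted p = 6.4e-07). Pfkm, a phosphofructokinase, differed by 0.17 ± 0.05 (adjusted p = 0.0144); its groups overlapped, and it did not pass without corticosterone replicate 3 (adjusted p = 0.0796). The glycolysis list stood at 6.54, 6.59, 7.52 and 8.05 log2 CPM in vehicle on days 0, 3, 6 and 9, and at 6.76, 6.75 and 7.16 in treated cultures on days 3, 6 and 9. At day 3, 8 members had been higher and 4 lower, and at day 6, 4 were higher and 17 lower.

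**Figure D3:**
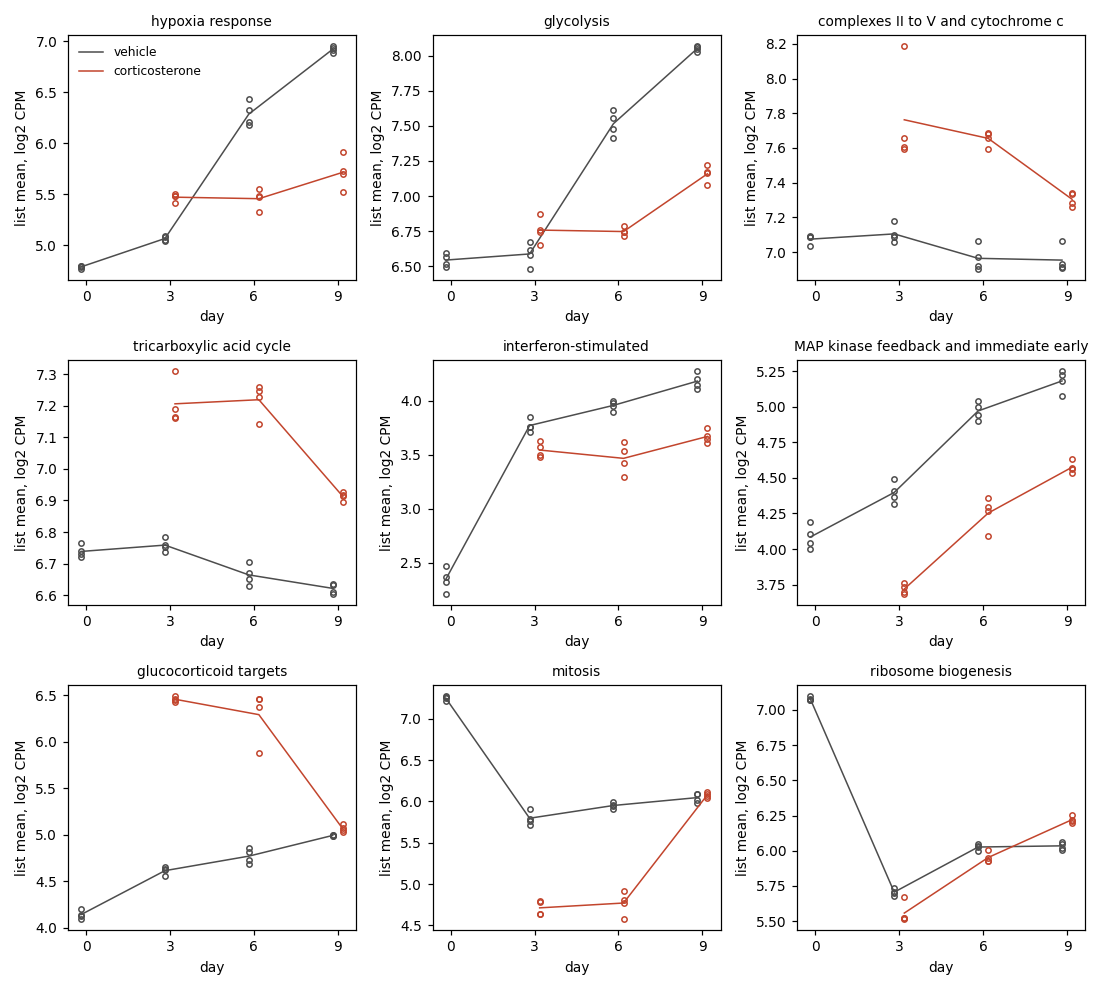
Mean level of 9 gene lists (vertical axis, log2 CPM; circles are libraries, lines join the group means) by day (horizontal axis) in vehicle (grey) and corticosterone (red) cultures. The hypoxia list ends at 6.92 in vehicle and 5.72 in treated cultures on day 9, whereas the mitosis list ends at 6.05 and 6.08.

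Promoter sequence was read for these lists because their members moved together. Windows of 250 bases before the start of a gene were taken from RefSeq on build GRCm38.p6 and read on the gene's strand. The core of the hypoxia response element was searched as ACGTG or GCGTG on both strands, and ACGTG is also part of the E-box CACGTG. A match was found in 6138 of 10074 tested genes with a window (60.9%), in 22 of the 22 hypoxia genes with a window and in 19 of 22 glycolysis genes (86.4%). Some genes had several windows, and a match in any of them counted. The windows numbered 12887 for all tested genes, 28 for the hypoxia genes and 35 for the glycolysis genes. More windows per gene raise the share with a match. Such a match is a string of letters and not an observed binding site. These shares follow from which genes a list holds, not from the levels measured here, and support nothing about the treatment. The windows of the glucose transporter and of both hydroxylases, which had the smallest adjusted p of the hypoxia list, are shown with the matches in capitals. The matches lie 31 and 56 bases before the start of Slc2a1 (chr4:119108495-119108744, + strand), 63 and 121 bases before that of Egln1 (chr8:124949255-124949504, - strand) and 224 bases before that of Egln3 (chr12:54203875-54204124, - strand).
Slc2a1: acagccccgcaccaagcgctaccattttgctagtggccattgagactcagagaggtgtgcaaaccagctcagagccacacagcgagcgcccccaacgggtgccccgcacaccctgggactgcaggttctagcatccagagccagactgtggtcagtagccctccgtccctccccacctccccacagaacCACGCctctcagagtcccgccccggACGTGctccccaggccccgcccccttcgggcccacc
Egln1: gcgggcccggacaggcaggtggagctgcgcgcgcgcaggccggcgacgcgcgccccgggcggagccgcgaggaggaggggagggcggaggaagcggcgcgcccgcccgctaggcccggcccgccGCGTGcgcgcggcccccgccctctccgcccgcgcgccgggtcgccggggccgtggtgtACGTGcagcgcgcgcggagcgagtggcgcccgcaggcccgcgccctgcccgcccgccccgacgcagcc
Egln3: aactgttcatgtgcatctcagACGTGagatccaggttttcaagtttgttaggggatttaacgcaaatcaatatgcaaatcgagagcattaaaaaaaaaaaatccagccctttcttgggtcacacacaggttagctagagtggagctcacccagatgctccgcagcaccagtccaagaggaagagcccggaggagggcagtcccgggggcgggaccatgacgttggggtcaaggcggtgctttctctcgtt

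Genes of oxidative metabolism differed in the other direction and by less. Of 37 measured subunits of respiratory complex I, 16 rose and 1 fell (median 0.26), and 36 had a positive value. Of 39 genes of complexes II to V and cytochrome c, 29 rose and none fell (median 0.35), and all 39 had a positive value. The tricarboxylic acid cycle list had 19 rises and 1 fall among 24 genes (median 0.32), and fatty acid oxidation 13 rises and no fall among 24 (median 0.24). Of 77 mitochondrial ribosome genes 37 rose and none fell (median 0.23). The complex I count depended on the setting: 29 subunits passed without day 3 corticosterone replicate 4, and 35 with library weights. Fatty acid oxidation counted 8 rises without vehicle replicate 6.

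Idh3a, a subunit of isocitrate dehydrogenase, was at 6.91, 6.99, 6.91 and 6.99 log2 CPM in vehicle and 7.49, 7.47, 7.53 and 7.55 after corticosterone. The groups were narrow and did not overlap (0.56 ± 0.04, adjusted p = 3.4e-11). Citrate synthase, Cs, which opens the cycle, rose by 0.48 ± 0.05, and the pyruvate dehydrogenase subunit Pdha1, which feeds it, by 0.36 ± 0.04. In the electron transport chain, Ndufa4, listed with complex I but now assigned to complex IV, stood at 5.98, 6.05, 5.81 and 6.49 in vehicle and 6.90, 7.02, 7.05 and 7.08 after corticosterone (0.93 ± 0.14, adjusted p = 1.9e-05). Vehicle replicate 6 was the nearest to the treated libraries and still below them. Smaller rises were measured for the complex I subunit Ndufa10 (0.50 ± 0.06), the complex II anchor Sdhd (0.39 ± 0.06), the complex III genes Uqcrc1 (0.46 ± 0.05) and Cyc1 (0.44 ± 0.07), and the electron carrier cytochrome c, Cycs (0.45 ± 0.07). In fatty acid oxidation, the thiolase Acaa2 rose by 0.54 ± 0.07 and Etfdh, which passes electrons from the pathway to ubiquinone, by 0.40 ± 0.04. Mrpl16 led the mitochondrial ribosome with 0.62 ± 0.06. Against these, the complex I subunit Ndufv3 fell (-0.37 ± 0.10, adjusted p = 0.00615), as did pyruvate carboxylase, Pcx, which refills the cycle (-0.22 ± 0.08, adjusted p = 0.0319); both were named after their values were seen, and Pcx did not pass after quantile normalization or without certain single libraries.

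Of 17 regulators of mitochondrial biogenesis 3 rose and 3 fell (median 0.01), where 14.1% of all genes rose and 14.4% fell. The list thus leaned to neither side. Its members that rose were the coactivator Ppargc1a (0.70 ± 0.12, adjusted p = 6.2e-05), its partner receptor Esrra (0.26 ± 0.06) and the mitochondrial DNA packaging factor Tfam (0.22 ± 0.06). Of 11 transcripts of the mitochondrial genome, which encodes the chain's core subunits, 4 rose and none fell (median 0.16). mt-Nd1 was at 11.51, 11.48, 11.45 and 11.49 log2 CPM in vehicle and 11.88, 11.93, 12.05 and 12.07 after corticosterone, without overlap (0.50 ± 0.05, adjusted p = 4.5e-08). mt-Cytb rose by 0.24 ± 0.06, but by 0.05 (adjusted p = 0.612) after quantile normalization, under which 2 of the 11 passed. Mitochondrial transcripts together took 5.87, 5.70, 5.64 and 6.1% of the vehicle libraries and 6.31, 6.28, 6.99 and 6.92% of the treated libraries. The groups did not overlap, with means of 5.83 ± 0.205% and 6.62 ± 0.38% (SD, n = 4), and the difference of 0.798 percentage points had the smallest p that an exact two-sided permutation test of this design can give (0.0286).

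Except for the mitochondrial ribosome, the lists of oxidative metabolism had been further from zero on the earlier days. The mitochondrial ribosome had a median of 0.17 at day 6 and 0.18 at day 3, against 0.23 at day 9. Complex I had 37 and 36 rises at days 6 and 3 (medians 0.60 and 0.63), and complexes II to V had 38 and 39 (0.68 and 0.64). For 22 of the 39 genes of complexes II to V the day 9 effect was smaller than the day 6 effect in a test of the difference, which 30.9% of all genes passed in either direction. Their mean level was 7.07 log2 CPM on day 0 and 6.95 ± 0.07 on day 9 in vehicle, and 7.76, 7.66 and 7.30 ± 0.04 in treated cultures on days 3, 6 and 9. The vehicle level of these genes thus changed far less between day 0 and day 9 than that of the hypoxia genes.

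**Figure D4:**
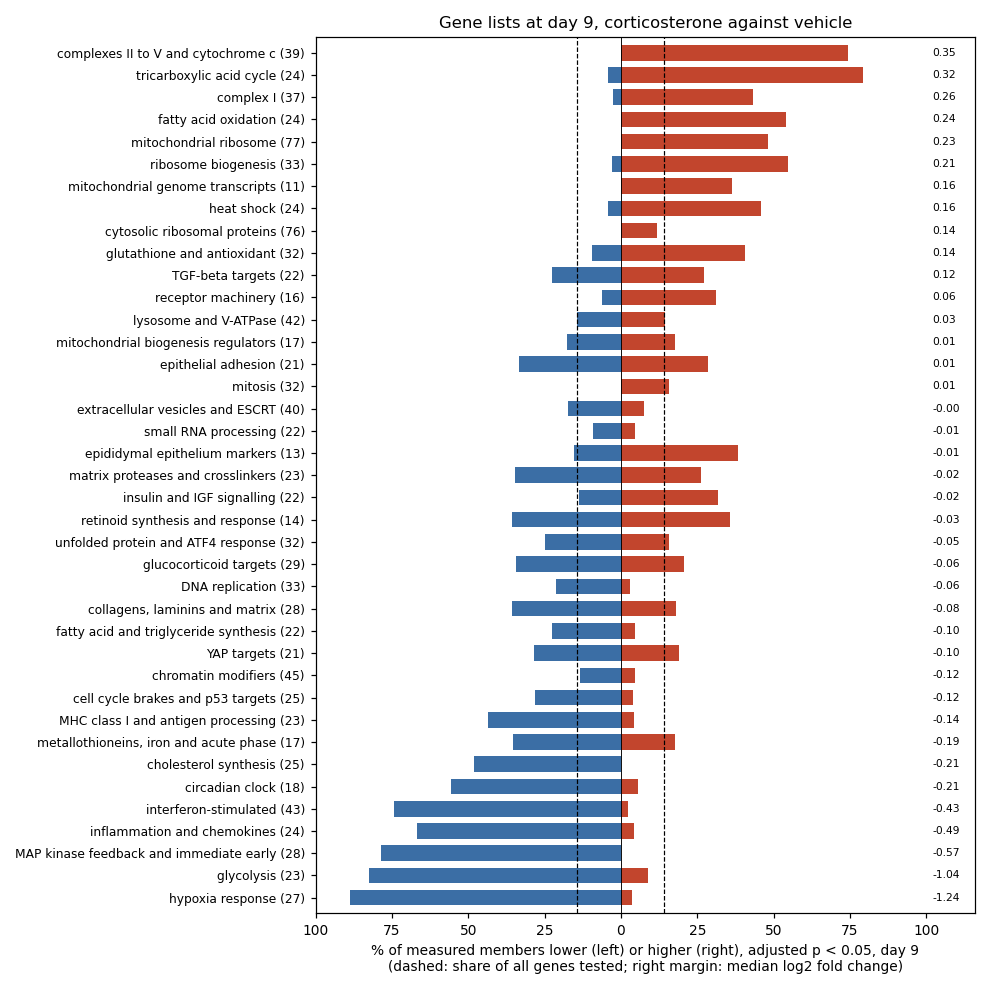
Share of the measured members of each list (number in parentheses, lists of at least 10) that were lower (bars to the left, blue) or higher (bars to the right, red) at day 9, in percent, with the shares of all genes as dashed lines and each list's median log2 fold change at the right. The hypoxia list (24 of 27 lower, median -1.24) is at one end, and the lists of oxidative metabolism are on the side of rises, with a median of 0.35 for complexes II to V.

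Among genes with a mean of at least 1 log2 CPM whose groups did not overlap, the largest rise was that of Kank4, of a protein family that regulates the actin skeleton. It was at 0.72, 0.11, 0.06 and -0.33 log2 CPM in vehicle and at 3.29, 3.73, 3.23 and 3.39 after corticosterone. All treated values were higher (3.27 ± 0.36, adjusted p = 1.2e-07), after 5.51 at day 3 and 4.88 at day 6. Eva1a, which takes part in autophagy, had values of -0.77, -0.45, -0.36 and 0.35 in vehicle and 2.49, 2.28, 2.52 and 2.52 after treatment (2.76 ± 0.40, adjusted p = 8.7e-06). Gsta3, a glutathione transferase, was at 1.08, 1.17, 1.33 and 1.26 in vehicle and 3.6, 3.49, 3.62 and 3.41 after treatment, and its 4.99-fold difference was without overlap (2.32 ± 0.16, adjusted p = 5.4e-11). Selenop, which carries selenium, was at 6.83, 7.0, 6.88 and 6.96 in vehicle and 8.60, 8.47, 8.77 and 8.64 after treatment, also apart (1.70 ± 0.10, adjusted p = 2.2e-12). The others among the 12 largest rises were Coro2a and Actr3b, both linked to the actin skeleton (2.18 ± 0.42 and 1.96 ± 0.16), the ubiquitin ligase adaptor Klhl13 (1.74 ± 0.38), the polarity protein gene Lin7a (1.57 ± 0.17), the matrix proteoglycan Ogn (1.51 ± 0.13), keratins Krt7 and Krt8, and Aldh1a1. Except for Klhl13 and Krt8, these genes had passed in the same direction on days 3 and 6 (Krt8 at day 6 only).

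Aldh1a1, which makes retinoic acid from retinal, was among these rises. It stood at 6.68, 6.79, 6.68 and 6.88 log2 CPM in vehicle and 9.06, 9.00, 9.06 and 9.09 after corticosterone, with little spread in either group (2.29 ± 0.09, adjusted p = 1.4e-15). The effect was 4.38 at day 3 and 4.37 at day 6. Its near-identical neighbour Aldh1a7, with which reads can be shared, rose by 3.94 ± 0.29 from a mean of 0.24 to 3.48 CPM. Of 14 measured retinoid genes 5 rose and 5 fell (median -0.03). The retinoic acid binding protein Crabp1 rose (1.76 ± 0.25) while Crabp2 fell (-1.10 ± 0.25), both named after their values were seen.

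Aire, known as the regulator of self-antigen expression in the thymus, showed the largest fall by the same limits. It stood at 3.90, 3.91, 4.14 and 4.07 log2 CPM in vehicle and -1.43, -0.35, -1.08 and -2.33 after corticosterone. The vehicle mean was 16.1 CPM and the treated mean 0.458 CPM, without overlap (-5.30 ± 0.37, adjusted p = 4.0e-11). In vehicle cultures it had been at -2.34, -2.62 and 2.06 on days 0, 3 and 6. Nlrp10, of the NOD-like receptor family, fell by 3.42 ± 0.24 (adjusted p = 6.0e-11). Unc13a, a synaptic vesicle priming gene, was at 5.16, 5.10, 5.33 and 5.87 in vehicle and 3.01, 2.83, 3.00 and 3.04 after corticosterone (-2.40 ± 0.13), against -0.47 at day 6 and 0.58 at day 3. The last of the 12 largest falls were Cables1, a partner of cyclin-dependent kinases (-2.36 ± 0.25, against 1.07 at day 3), and Lrp2bp (-2.22 ± 0.28).

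The median of the textbook glucocorticoid targets was close to zero at day 9. Of 29 measured targets 6 rose and 10 fell (median -0.06), against 24 rises and 1 fall at day 6 (median 0.86) and the same counts at day 3 (median 1.19). For 25 of the 29 the day 9 effect was below the day 6 effect in a test of the difference. Zbtb16, a zinc finger gene with a strong glucocorticoid response, still stood apart, at -4.15, -3.41, -3.6 and -3.52 log2 CPM in vehicle, where replicate 3 sat at the floor of all values, and at 1.21, 0.96, 1.21 and 0.58 after corticosterone. The mean level was 0.0801 CPM in vehicle and 2.02 CPM after corticosterone (4.66 ± 0.35, adjusted p = 1.9e-10; 9.12 at day 6). Fkbp5 was at 6.11, 6.26, 6.19 and 6.09 in vehicle and 6.92, 6.85, 6.97 and 6.90 after treatment, higher in each treated library (0.74 ± 0.12, adjusted p = 4.0e-05). Sesn1, a stress-induced inhibitor of mTOR signalling, rose by 0.43 ± 0.06.

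Other targets did not pass or were lower after treatment. Tsc22d3, an anti-inflammatory leucine zipper gene, had 4.53, 4.50, 4.46 and 4.42 in vehicle and 4.87, 4.84, 4.79 and 4.82 after corticosterone; its groups did not overlap, yet the difference of 0.36 ± 0.14 did not pass (adjusted p = 0.0600), and it passed with the 8 day 9 libraries alone (adjusted p = 4.9e-04). Klf9 differed by -0.19 ± 0.10 (adjusted p = 0.159), and it passed in that fit too (adjusted p = 0.0138). The kinase gene Sgk1 fell (-0.77 ± 0.28, adjusted p = 0.0435) after 4.94 at day 6, and it did not pass with 1 CPM added before the log or without several single libraries. The genes of the clock repressor Per1 (-0.34 ± 0.08), the phosphatase Dusp1 (-0.44 ± 0.07), the metallothionein Mt2 (-0.65 ± 0.11), the NF-kB inhibitor Nfkbia (-0.70 ± 0.08) and the cyclin-dependent kinase inhibitor Cdkn1a (-0.70 ± 0.07) fell. Nr3c1 itself fell (-0.31 ± 0.10, adjusted p = 0.0210), a call lost without vehicle replicate 6 or corticosterone replicate 3 or 4, and the mineralocorticoid receptor gene Nr3c2 differed by 0.06 ± 0.27 (adjusted p = 0.899). Hsd11b2, which inactivates corticosterone, was at 1.13, 1.47, 1.13 and 0.94 log2 CPM in vehicle and 2.73, 2.73, 2.61 and 2.47 after treatment, higher throughout (1.47 ± 0.16, adjusted p = 1.2e-07), against 0.45 at day 6 and -0.45 at day 3. Abcb1b, a steroid-exporting pump whose reads can be shared with Abcb1a, rose by 0.50 ± 0.12.

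Clock genes, of which Per1 is also a receptor target, counted 10 falls and 1 rise of 18 (median -0.21). Bhlhe40, a repressor within the clock that also responds to low oxygen, was at 8.05, 8.05, 8.13 and 7.84 log2 CPM in vehicle and 6.75, 6.87, 6.96 and 6.67 after corticosterone (-1.20 ± 0.08, adjusted p = 3.7e-11). Per3 (-0.73 ± 0.05) and Nfil3 (-0.56 ± 0.09) fell, the latter after 1.20 at day 6. Hlf, an activator of the same output pathway and named after its values were seen, rose by 0.54 ± 0.15.

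Most measured genes of the MAP kinase feedback and immediate early, inflammation and interferon-stimulated lists were lower in the treated cultures. Of 28 measured MAP kinase feedback and immediate early genes 22 fell and none rose (median -0.58), close to the day 6 median of -0.63 and the day 3 median of -0.62. Egr1, an immediate early transcription factor, was at 9.23, 9.32, 9.29 and 8.88 log2 CPM in vehicle and 8.13, 8.42, 8.20 and 8.23 after corticosterone. Every treated library was below the lowest vehicle library, replicate 6 (-0.93 ± 0.10, adjusted p = 1.7e-07). Falls were also measured for Egr2 (-1.79 ± 0.20), the ERK phosphatase gene Dusp5 (-1.17 ± 0.09), the EGF receptor ligand Hbegf (-0.56 ± 0.06) and the ETS factor Etv4 (-1.69 ± 0.22). The mean level of the list was 5.18 ± 0.08 log2 CPM in vehicle and 4.57 ± 0.04 in treated cultures (SD, n = 4).

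Of 24 inflammation and chemokine genes 16 fell and 1 rose (median -0.49; -0.66 at day 6 and -0.67 at day 3). Ccl2, which attracts monocytes, was at 5.96, 5.83, 5.99 and 6.19 log2 CPM in vehicle and 4.67, 4.79, 4.82 and 4.83 after corticosterone. The treated libraries were all lower (-1.21 ± 0.09, adjusted p = 2.6e-10; -2.45 at day 6). Its relatives Ccl7 (-1.33 ± 0.15), Ccl5 (-1.60 ± 0.26) and Cxcl10 (-0.61 ± 0.07) fell, as did the adhesion molecule Vcam1 (-1.33 ± 0.15). Cxcl12, a chemokine made by stromal and epithelial cells and named after its values were seen, rose by 0.21 ± 0.04 (adjusted p = 5.1e-04), after -0.94 at day 6 and -1.16 at day 3. Of 14 macrophage and leukocyte markers 3 were measured, 1 of which, the lysosomal protein gene Cd68, fell (-1.07 ± 0.10). The other 2 had positive values and did not pass, Csf1r at 0.75 (adjusted p = 0.0546) and Cd14 at 0.10 (adjusted p = 0.412), and the list's median was 0.10. The summed level of the 3, lower through Cd68 alone, was 133.3 to 149.3 CPM in vehicle and 91.6 to 95.4 CPM in treated libraries, and the part of this in the fall of inflammation genes was not tested.

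Interferon-stimulated genes counted 32 falls and 1 rise of 43 (median -0.43), with medians of -0.32 at day 6 and -0.24 at day 3. Rsad2, the antiviral protein viperin, was at 4.05, 3.94, 3.99 and 3.89 log2 CPM in vehicle and 2.36, 2.66, 2.68 and 2.49 after corticosterone (-1.42 ± 0.18, adjusted p = 1.0e-06). Ifit1, which binds foreign RNA, was at 5.61, 5.62, 5.56 and 5.69 in vehicle and 4.79, 5.03, 4.98 and 5.11 after treatment (-0.65 ± 0.08, adjusted p = 1.5e-06). In both genes the groups were well apart. Oasl2 (-1.11 ± 0.09), of the oligoadenylate synthetase family, and the virus tether Bst2 (-0.68 ± 0.10) fell too. The member that rose, Ifit2, differed by 0.19 ± 0.04 (adjusted p = 0.00151) and was named after its values were seen. In vehicle cultures the list stood at 2.34 log2 CPM on day 0, 3.77 on day 3, 3.96 on day 6 and 4.18 on day 9, and in treated cultures at 3.54, 3.47 and 3.67 on days 3, 6 and 9.

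The core of the interferon-stimulated response element, searched as GAAANNGAAA on both strands of the same windows, was found in 15 of 33 list genes with a window (45.5%) and in 323 of 10074 of all tested genes with a window (3.21%). A match in any window of a gene counted here too, with 39 windows for the list. As above, the shares follow from which genes the list holds and support nothing about the treatment. The windows of Rsad2 (chr12:26456453-26456702, - strand, match 110 bases before the start) and Ifit1 (chr19:34640639-34640888, + strand, matches 75 and 94 bases before it) are printed as examples from the list, with the matches in capitals.
Rsad2: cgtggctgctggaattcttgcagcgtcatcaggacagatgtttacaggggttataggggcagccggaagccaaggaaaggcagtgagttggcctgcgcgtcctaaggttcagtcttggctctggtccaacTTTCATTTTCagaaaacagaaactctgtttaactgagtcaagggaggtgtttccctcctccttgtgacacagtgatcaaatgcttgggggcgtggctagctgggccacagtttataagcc
Ifit1: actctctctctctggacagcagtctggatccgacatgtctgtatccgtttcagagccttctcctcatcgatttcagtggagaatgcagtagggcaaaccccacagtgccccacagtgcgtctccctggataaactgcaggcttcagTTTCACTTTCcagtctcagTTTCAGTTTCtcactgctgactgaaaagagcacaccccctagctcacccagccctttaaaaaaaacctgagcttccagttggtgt

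MHC class I and antigen processing genes, of which Psmb9 is also interferon-stimulated, had 10 falls and 1 rise of 23 (median -0.14). H2-K1 was at 6.43, 6.36, 6.38 and 6.49 log2 CPM in vehicle and 5.29, 5.32, 5.37 and 5.32 after corticosterone, a fall of more than 2-fold in the mean (-1.09 ± 0.06, adjusted p = 1.2e-12) against -0.45 at day 6. H2-Q4 (-0.90 ± 0.08) and the immunoproteasome subunit Psmb9 (-1.05 ± 0.20) also fell. Class I genes are close copies of each other, so the split of reads between H2-K1 and H2-Q4 is uncertain. The chaperone Calr, named after its values were seen, rose by 0.28 ± 0.07.

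Mitosis genes were close to the vehicle level at day 9. All 32 mitosis genes had been lower at day 6 (median -1.17) and at day 3 (median -1.08), and at day 9, 5 were higher and none lower (median 0.01). At 15.6% the share that rose was near the 14.1% of all genes, so the rises named below describe single genes and not the list. For all 32 the day 9 effect differed upward from both earlier effects. The list stood at 6.05 ± 0.06 log2 CPM in vehicle and 6.08 ± 0.03 in treated cultures at day 9, against 5.95 and 4.77 at day 6. The kinesin gene Kif20a was at 7.11, 6.99, 7.08 and 6.99 in vehicle and 7.24, 7.28, 7.27 and 7.25 after corticosterone, a small difference without overlap (0.22 ± 0.06, adjusted p = 0.00895). Cenpe, Aurka and Nuf2, of the kinetochore and spindle, rose by 0.43 ± 0.10, 0.31 ± 0.09 and 0.26 ± 0.08, and Nuf2 did not pass without corticosterone replicate 6 (adjusted p = 0.0658). Plk1, a mitotic kinase named after its values were seen, rose by 0.22 ± 0.07 (adjusted p = 0.0250), a call lost without vehicle replicate 4 or 6 or corticosterone replicate 3.

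DNA replication genes had 7 falls and 1 rise of 33 (median -0.06) after 33 falls at day 6 (median -0.68), and 4 falls without vehicle replicate 3. In either direction 24.2% passed at day 9, against 28.5% of all genes, so the falls named next describe single genes and not the list. E2f1, which drives S phase genes, fell by 0.52 ± 0.06, and the helicase subunit gene Mcm6 fell by 0.13 ± 0.04. Of 25 cell cycle brakes and p53 targets 7 fell and 1, Sesn1, rose (median -0.12). The share that passed in either direction, 32%, was near that of all genes. Cdkn1a was at 7.06, 7.08, 7.08 and 6.91 log2 CPM in vehicle and 6.39, 6.39, 6.31 and 6.23 after corticosterone, lower throughout, against 0.19 at day 6. Btg2, an antiproliferative gene, fell by 0.67 ± 0.07. The G1 cyclin Ccnd1 rose, from 5.94, 5.65, 5.97 and 5.49 to 6.70, 6.63, 6.34 and 6.76 (0.85 ± 0.14, adjusted p = 5.2e-05), having been lower at day 3 (-0.90).

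Ribosome biogenesis genes had 18 rises and 1 fall of 33 (median 0.21), where day 6 had 1 rise and 10 falls (median -0.09). Nucleolin, Ncl, was at 9.23, 9.15, 9.28 and 9.18 log2 CPM in vehicle and 9.49, 9.49, 9.54 and 9.59 after corticosterone (0.31 ± 0.04, adjusted p = 3.8e-07; -0.21 at day 6). Rrn3, an RNA polymerase I factor, rose by 0.21 ± 0.03. Myc, the transcription factor that drives many of these genes, was the member that fell (-0.35 ± 0.10, adjusted p = 0.00722); its groups overlapped, and it was named after its values were seen. Of 76 cytosolic ribosomal protein genes 9 rose, Rplp0 among them (0.24 ± 0.06), and none fell (median 0.14). At 11.8% this share was below the 14.1% of all genes that rose. The count was 42 without day 3 corticosterone replicate 4, 16 after quantile normalization, 34 with the 8 day 9 libraries alone and 48 with library weights.

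Genes that passed at day 9 but at neither earlier day, and whose day 9 effect differed from both, numbered 252, of which 140 were higher and 112 lower. By the limits on level and overlap above, the largest rise was that of Fam135b, at 2.45, 2.11, 2.46 and 1.24 log2 CPM in vehicle and 3.23, 3.49, 3.69 and 3.54 after corticosterone (1.42 ± 0.32, adjusted p = 0.00155). Cxcl14, an epithelial chemokine, was at 1.32, 1.37, 1.79 and 1.33 in vehicle and 2.99, 3.01, 2.63 and 2.80 after treatment, with treated values all higher (1.40 ± 0.12, adjusted p = 1.0e-09) and effects of -0.08 and -0.10 at days 6 and 3. Pcdh18 (1.20 ± 0.26), Nol4 (0.91 ± 0.17) and Ccdc3 (0.90 ± 0.14) came next. On the lower side, Nt5e, the ecto-enzyme that makes adenosine, was at 5.10, 5.12, 5.13 and 5.20 in vehicle and 4.08, 4.06, 4.15 and 4.09 after corticosterone. Its groups were each narrow and far apart (-1.04 ± 0.07, adjusted p = 5.9e-11), and its effect had been -0.01 at day 6 and -0.03 at day 3. Falls followed for Kctd15 (-1.48 ± 0.23), the Notch ligand Jag2 (-1.35 ± 0.19), the protease gene Tmprss9 (-1.16 ± 0.16) and the guanylate binding protein Gbp4 (-1.03 ± 0.20).

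Among the 763 genes on opposite sides at day 9 and day 3, rises at day 9 by those limits included Ccnd1, Nlrc3, an inhibitor of innate signalling (0.82 ± 0.11, against -1.05 at day 3), the vesicle traffic gene Rab30 (0.71 ± 0.21, against -0.75) and the small GTPase gene Rrad (0.68 ± 0.08, against -0.80). Rab30 did not pass without vehicle replicate 4 or corticosterone replicate 5. Falls were ranked by the smaller of the effects at days 9 and 3, not by the day 9 fall. First in this ranking were Adm, Cables1, Hk2, Lrrc14b (-1.45 ± 0.36, against 0.94) and Cfap100, a cilium gene. Cfap100 was at 3.49, 3.65, 3.69 and 3.33 log2 CPM in vehicle and 2.66, 2.48, 2.63 and 2.65 after corticosterone (-0.94 ± 0.16), after 0.95 at day 6 and 1.58 at day 3. By those limits, of the genes that kept one direction on all 3 days, Nlrp10, Etv4, the inhibitory Fc receptor Fcgr2b (-1.67 ± 0.35), the mitochondrial carrier Ucp2 (-1.65 ± 0.26) and Ccl5 fell most, and Kank4, Eva1a, Gsta3, Aldh1a1 and Coro2a rose most. For Ucp2 the effect was -3.36 at day 3 and -3.36 at day 6.

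**Figure D5:**
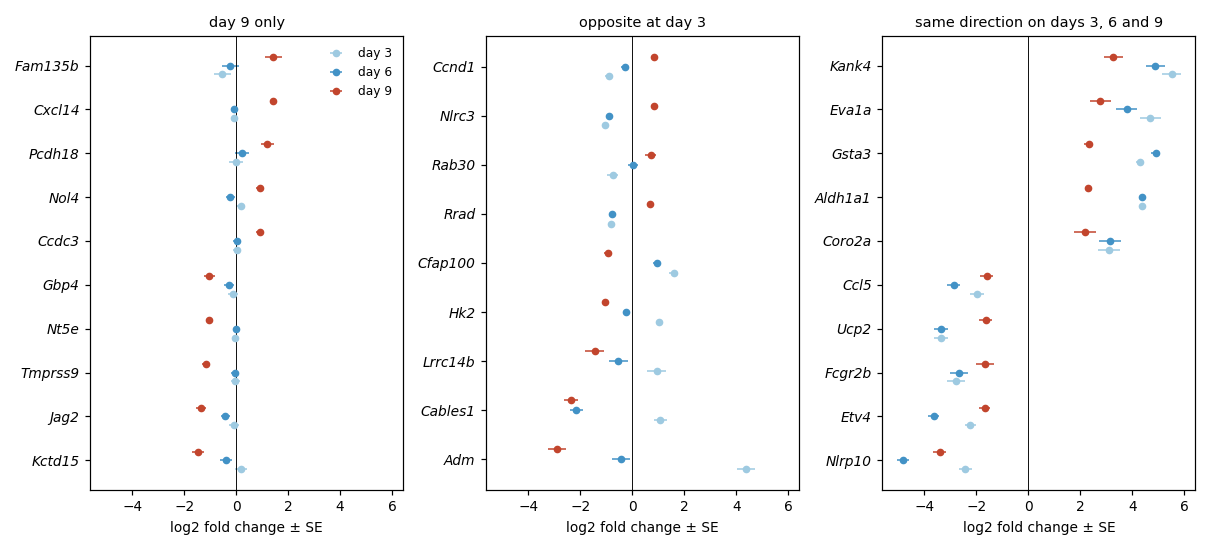
Log2 fold change with SE (horizontal axis) at days 3, 6 and 9 of the genes named for passing at day 9 alone (left), on the opposite side of day 3 (middle) and in the same direction on all 3 days (right). Adm lies at 4.35 on day 3 and -2.92 on day 9, while Kank4 stays on the side of rises throughout.

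Some epithelial genes were among those that rose. Epcam, an adhesion molecule of simple epithelia, was at -1.77, -0.56, -1.54 and -1.01 log2 CPM in vehicle and 1.61, 1.16, 1.33 and 1.80 after corticosterone, or 0.452 and 2.82 CPM on average. The treated values were all higher (2.69 ± 0.44, adjusted p = 4.3e-05), and the effect exceeded that of day 6 (0.44) by 2.25 (adjusted p = 0.00708). Cftr, the chloride channel of the epididymal lining, was at 1.82, 1.70, 1.73 and 1.61 in vehicle and 3.23, 3.06, 3.32 and 3.09 after treatment, also without overlap (1.46 ± 0.10, adjusted p = 4.0e-11), and its effect exceeded that of day 6 by 0.91 (adjusted p = 2.2e-05). Of 6 measured keratins 3 rose and none fell (median 0.62). Those that rose were low, and 1 rise was counted with a filter of log2 CPM above 2 in at least 4 libraries. The summed level of the list was 46.5 to 55.4 CPM in vehicle and 43.2 to 58.1 CPM in treated libraries, which overlapped. Krt8, of simple epithelia, was at -0.14, 1.15, 0.24 and 1.48 in vehicle and 2.49, 2.39, 1.92 and 2.43 after treatment (1.62 ± 0.27, adjusted p = 4.2e-05), and its vehicle values were widely spread. Krt7 rose by 1.96 ± 0.32 and Krt20 by 1.13 ± 0.26, the latter from a mean of 0.56 to 1.22 CPM.

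Of the 13 measured epididymal epithelium markers 5 rose, Cftr and Krt8 among them, and 2 fell, Cpq (-0.48 ± 0.06) and the transcription factor Sox9 (-0.31 ± 0.07), with a median of -0.01 and 7 of 13 values below zero. Their summed level was 639.8 to 715.2 CPM in vehicle and 698.8 to 727.1 CPM in treated libraries, so that these ranges overlapped. Without vehicle replicate 6, 3 of the 13 rose. Epithelial adhesion genes had 6 rises and 7 falls of 21 (median 0.01), with a rise of Cdh2 (0.27 ± 0.04) and a fall of Cdh6 (-0.55 ± 0.09). Sprr1a, of the cornified envelope, fell by 1.10 ± 0.18 and was 1 of 2 falls among 9 genes of that list.

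Matrix genes moved in both directions. Collagens, laminins and other matrix genes had 5 rises and 10 falls of 28 (median -0.08), and matrix proteases and crosslinkers 6 rises and 8 falls of 23 (median -0.02). Lox was at 7.09, 7.08, 7.25 and 7.10 log2 CPM in vehicle and 5.34, 5.33, 5.61 and 5.35 after corticosterone (adjusted p = 1.6e-13), and its effect was -0.59 at day 6 and 0.02 at day 3. Loxl2 fell by 1.13 ± 0.06, while the urokinase gene Plau rose by 0.78 ± 0.07. Among 5 measured fibroblast markers, the proteoglycan Dcn rose by 0.63 ± 0.10 and Col1a1 fell by 0.64 ± 0.18; their summed level was 743.0 to 946.4 CPM in vehicle and 790.4 to 843.7 CPM in treated libraries. Acta2, of smooth muscle, rose by 1.60 ± 0.24 from a low level, while the other measured marker, Tagln, stood at -0.58 (adjusted p = 0.303), the summed smooth muscle markers being 1.71 to 2.17 CPM in vehicle and 1.78 to 3.42 CPM in treated libraries. The endothelial receptor gene Kdr rose by 2.26 ± 0.38, but by 0.12 with 5 CPM added before the log. The other 2 measured endothelial markers had negative values that did not pass, Vwf at -0.56 (adjusted p = 0.297) and Pecam1 at -0.09 (adjusted p = 0.873), and the summed markers were 2.87 to 5.87 and 2.79 to 3.81 CPM. Of 2 measured basal cell markers neither passed (44.8 to 48.7 CPM in vehicle and 50.3 to 55.8 CPM in treated libraries). The single measured clear cell marker, the carbonic anhydrase Car2, rose by 1.33 on the log2 scale, from a mean of 0.43 to 1.02 CPM. Its groups overlapped, and 0 rises were counted with a filter of log2 CPM above 2 in at least 4 libraries. What part other cell types have in any of these differences was not tested.

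Cholesterol synthesis genes had 12 falls and no rise of 25 (median -0.21), against 11 falls and 1 rise at day 6 (median -0.14) and 21 falls at day 3 (median -0.93). Stard4, which moves cholesterol inside cells, fell by 0.63 ± 0.06, and the feedback protein gene Insig1 (-0.58 ± 0.06) and squalene epoxidase, Sqle (-0.43 ± 0.05), fell too. Glutathione and antioxidant genes had 13 rises and 3 falls of 32 (median 0.14), with the peroxiredoxin Prdx6 up by 0.53 ± 0.10. Hmox1, heme oxygenase, was at 6.64, 6.48, 6.61 and 6.38 log2 CPM in vehicle and 5.72, 5.74, 5.72 and 5.70 after corticosterone, all lower (-0.81 ± 0.06, adjusted p = 3.1e-10), against -0.12 at day 6. Heat shock genes had 11 rises and 1 fall of 24 (median 0.16), and 7 rises without corticosterone replicate 6. The mitochondrial chaperones Hspd1 and Hspe1 rose by 0.41 ± 0.04 and 0.44 ± 0.08.

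Chromatin modifiers had 2 rises and 6 falls of 45 (median -0.12), so that 17.8% passed in either direction against 28.5% of all genes. The number of falls was 12 without day 3 corticosterone replicate 4 and ranged from 4 to 14 over the settings. Of the members that fell, Kdm4b, an oxygen-dependent histone demethylase, was at 7.09, 7.20, 7.12 and 6.94 log2 CPM in vehicle and 6.14, 6.19, 6.08 and 5.77 after corticosterone (-1.05 ± 0.09, adjusted p = 1.9e-09). The DNA demethylase Tet2 fell by 0.73 ± 0.12, and the histone demethylase Kdm6b fell by 0.54 ± 0.08. In the remaining lists, fatty acid and triglyceride synthesis had 1 rise and 5 falls of 22, the unfolded protein and ATF4 response 5 and 8 of 32, TGF-beta targets 6 and 5 of 22, YAP targets 4 and 6 of 21, and insulin and IGF signalling 7 and 3 of 22. Extracellular vesicle and ESCRT genes had 3 rises and 7 falls of 40, small RNA processing 1 and 2 of 22, lysosome and V-ATPase 6 and 6 of 42, metallothionein, iron and acute phase genes 3 and 6 of 17, and receptor machinery 5 and 1 of 16. Beside the 14.1% of all genes that rose and the 14.4% that fell, several of these shares are near or below the background, and they are not results about the lists. Single libraries also moved them. YAP falls were 3 without vehicle replicate 5, and insulin and IGF rises were 3 or 4 without vehicle replicate 5 or 6 or corticosterone replicate 4 or 5. Lysosome rises were 3 without corticosterone replicate 6 and 11 without day 3 corticosterone replicate 4, and receptor machinery rises were 3 without vehicle or corticosterone replicate 6. Small RNA processing had 1 fall without vehicle replicate 3, 4 or 5 or corticosterone replicate 3, 4 or 6, and 4 without day 3 corticosterone replicate 4.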

How the data were processed

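RNA of DC2 cells was sequenced in 28 libraries, 4 in each of 7 groups (vehicle at days 0, 3, 6 and 9, corticosterone at days 3, 6 and 9), made from 500 ng RNA with a stranded mRNA kit, per the labels' protocols. The authors deposited log2 CPM values (reads scaled to a common library size) for 13129 entries, and per the submitters' processing notes kallisto, edgeR 3.40.1, limma 3.54.0 and the build mm10 were used, with no role or order stated. The sources used here give neither the prior count nor the annotation or the normalization, and low values, which depend on that prior count, can be understated in their fold changes. Groups and replicate numbers came from the labels, and 0 other columns of per-sample values were present. An unnamed entry (0.0366 to 0.0393% of CPM at day 9) was left out.

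Taken back from the log, values summed to 988856 to 1010762 CPM per day 9 library. Only 14.0 to 15.5% of low values were whole multiples of a read (tolerance 0.02), so no count model was fitted; depth was estimated from values shared by at least 3 genes. A filter on genes above 0 log2 CPM in 4 or more libraries removed no gene.

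In limma 3.58.1 (R 4.3.3), each of the 7 groups had its own mean in a fit over the 28 libraries, which left 21 degrees of freedom, with moderated variances and an intensity trend. Corticosterone was contrasted with vehicle at days 9, 6 and 3, and the day 9 effect minus that of day 6 and of day 3. Genes with a Benjamini-Hochberg adjusted p under 0.05 passed. The contrasts of the 3 days share no libraries, but they share the pooled spread. In data simulated for day 9, 50 genes were planted at each log2 change of 0.25, 0.5, 1 and 2, with independent noise. The fit recovered 18, 78, 96 and 96% of them, and 7 of 12928 unchanged genes passed falsely. Far more genes passed in the real data (28.5%), which loosens the Benjamini-Hochberg cut, so these rates do not describe the real fit.

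Members, the 47 lists (1155 of 1311 entries matched) and the rule for named genes were chosen with earlier results of these data known. The rule took the 12 largest rises and falls with a mean of at least 1 log2 CPM and no overlap, skipping predicted gene models; 5 in each direction that passed at day 9 alone, on opposite sides of day 3, or in the same direction on all 3 days; the receptor and textbook targets; and up to 4 members of each list with the smallest p. A few genes that the rule names are not reported here. Genes outside it are marked as named after their values were seen.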

Additional observations from a re-analysis of the deposited data

Results flagged for a closer look

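For 21 of 302 group values of named genes, a single library lay far from the other 3 of its group, which chance alone gives for about 5% of groups. Vehicle replicate 6 was the low library for Cs (8.43 log2 CPM against 8.69 in the nearest other), Hspd1 (8.36), Mrpl16 (4.6), Prdx6 (6.88, against 7.32 in the nearest), Mcm6 (8.54), Cdkn1a (6.91) and Gbp4 (3.47). It had the fewest estimated reads of the 8 libraries, and the part of depth in these values was not tested. Vehicle replicate 4 was low for Ldha (10.57), Egln1 (8.49) and Rab30 (2.38), and vehicle replicate 5 was high for Lox (7.25) and Cxcl14 (1.79). Among treated libraries, replicate 3 was high for Coro2a (3.11) and Nr3c2 (3.28, against 2.35 in the nearest). Replicate 4 was high for Jag2 (3.3) and low for Eva1a (2.28), Cfap100 (2.48) and Aldh1a7 (1.59), and replicate 5 was high for Lox (5.61) and low for Bst2 (5.29) and Crabp2 (-0.97). For Coro2a, Jag2, Lox, Cs and Hspd1 the groups remained apart despite these libraries.

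The effect of corticosterone at day 9 differed from that at an earlier day for the genes named for that difference, each by a limma contrast. Day 9 minus day 3 was -7.27 on the log2 scale for Adm, -3.43 for Cables1, -2.52 for Cfap100, -2.39 for Lrrc14b and -2.07 for Hk2. It was 1.87 for Nlrc3, 1.75 for Ccnd1, 1.48 for Rrad and 1.46 for Rab30. Day 9 minus day 6 was 1.65 for Fam135b, 1.48 for Cxcl14, 1.15 for Nol4, 0.99 for Pcdh18 and 0.88 for Ccdc3. On the lower side it was -1.11 for Tmprss9, -1.09 for Kctd15, -1.04 for Nt5e, -0.93 for Jag2 and -0.74 for Gbp4. These genes were chosen for passing these tests, so the values describe them and support nothing further.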

How the results depend on the processing

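Against 1849 higher and 1887 lower genes, quantile normalization gave 2066 and 1805 (53.4% higher against 49.5%, with a median over all genes of 0.0145 against 0.0029), median centring 1920 and 1852, 1 CPM added before the log 1845 and 1944, 5 CPM added 1808 and 1962, a stricter filter (11460 genes) 1766 and 1741, no trend 1831 and 1873, robust moderation 1848 and 1886, the 8 day 9 libraries alone 2119 and 2140, and library weights 2741 and 2683. Leaving out each day 9 library gave 1510 to 1670 and 1589 to 1764. Of the called genes the text names, 138 of 148 kept their call and direction in each of the 21 or 22 settings that tested them. Most of these genes were picked for large or clear differences in these same data, which favours such stability. The setting without a filter repeated the main fit, because the filter removed no gene.

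Stricter rules moved the counts by construction. An adjusted p under 0.01 gave 1148 higher and 1253 lower genes, and at least 2-fold 123 and 173. At least 2-fold, the day 9 effect was above that of day 6 for 356 genes and below it for 341, and above that of day 3 for 359 and below it for 561. Library weights raised the complex I count from 16 to 35 and that of the mitochondrial ribosome from 37 to 63; the cause was not tested. Of the 2 settings added after seeing the data, leaving out day 3 corticosterone replicate 4 gave 29 complex I genes and 2403 higher and 2326 lower genes, and leaving out day 6 corticosterone replicate 6 gave 1863 and 1899. Over the 8 day 9 libraries and these 2 others, each left out in turn, complex I had 11 to 29 rises. The difference in mitochondrial share was 0.677 to 0.913 percentage points without each library; it was 0.755 without vehicle replicate 4 and 0.735 without vehicle replicate 5, each with p = 0.0571 in the exact permutation test, and p was 0.0286 in the others. The log2 fold change of Nr3c2, which did not pass, reversed to -0.10 with library weights, -0.06 without vehicle replicate 4, -0.10 without vehicle replicate 6 and -0.19 without corticosterone replicate 3; without each library it ranged from -0.19 to 0.27.

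Same-numbered libraries of the groups deviated together with correlations of 0.0324, 0.167, 0.0893 and 0.0541, so the numbers were not taken to pair the samples. With a replicate block the counts were 1904 and 1923 over all libraries and 2021 and 2110 over the 8 day 9 libraries. Depth limits genes near the lowest value of the table (-4.15 log2 CPM), such as Epas1, Kdr and Zbtb16.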
